A study of Homo sapiens with 12 samples.

Results

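The proteasome subunits, with their caps, activators and assembly chaperones, were followed in irradiated human fibroblasts as 46 genes. They are the rows of the deposited gene table whose symbol has the form PSMA to PSMG followed by a number, without PSMB8 and PSMB9, out of 57500 rows in all. By role they comprised 17 core genes, 17 regulatory cap genes, 5 activator or inhibitor genes and 7 assembly genes. Of these, 44 had enough reads to be tested among 16251 genes, and the other two, PSMA8 and PSMB11, were at or near 0.

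The study compared RNA from MRC5 cells, a human embryonic lung fibroblast line, in 4 groups of 3 libraries. Proliferating cells (Prol) were not irradiated. Senescent cells (Sen(IR)) had received 20 Gy of X-rays and were collected 10 to 12 days afterwards. Sen(IR+UK5099) cells were irradiated in the same way and kept in 100 µM UK5099, an inhibitor of the mitochondrial pyruvate carrier. Sen(IR+CTPI2) cells were irradiated and kept in CTPI2, an inhibitor of the mitochondrial citrate carrier, used in the study at 15 or 30 µM, and the dose behind these libraries is not given in the sources used here. Inhibitors were added 1 day after irradiation and kept for 12 days. All groups are the same line, so they stand for 1 donor's cells. A vehicle for the Prol and Sen(IR) cells is not given in the sources used here.

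The proteasome degrades proteins tagged with ubiquitin. Its core is a barrel of stacked rings, with alpha subunits (PSMA genes) forming the gates at both ends and beta subunits (PSMB genes) carrying the protease sites inside. A regulatory cap of ATPases (PSMC genes) and scaffold, receptor and deubiquitinase subunits (PSMD genes) binds the ubiquitin tag, unfolds the substrate and feeds it in. Interferon induces replacement beta subunits and the PSME1 and PSME2 activator, which together favour the production of peptides for antigen presentation. Dedicated chaperones build the rings and the base of the cap and then leave.

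Library totals ranged from 20597736 to 28245693 counts with a median of 23650931. The fibroblast label was checked against 9 markers, all of them over 1 CPM (counts scaled to library size) in every group. Their summed level was 21298 to 25338 CPM in Prol and 20550 to 21131 CPM in Sen(IR). It was 18149 to 19925 CPM in Sen(IR+CTPI2) and 10895 to 11387 CPM in Sen(IR+UK5099), both below Sen(IR). The 3 epithelial and the 3 endothelial markers each summed to at most 1.36 CPM. The 3 immune markers summed to 0.172 to 0.256 CPM in Prol against 2.99 to 3.93 CPM in Sen(IR), nearly all of it CD14. Their sum was 2.44 to 3.23 CPM in Sen(IR+UK5099) and 3.64 to 4.87 CPM in Sen(IR+CTPI2). MKI67, a proliferation gene, was at 209.7 to 271 CPM in Prol, from 9.27 to 12.6 CPM in Sen(IR) and from 0.63 to 1.37 CPM in Sen(IR+UK5099). Its mean in Sen(IR+CTPI2) was 12.5 CPM. The part of these shifts in the results on proteasome genes was not tested. In bulk RNA, fewer cells of a type and less RNA per cell cannot be told apart. The labels do not say that replicates were separate cultures, whereas the study's legends call its RNA-seq samples independent experiments or independent conditions without tying this to single libraries. The p-values measure the spread between these libraries.

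Promoters were looked up in the RefSeq table, which spans 250 bases before to 50 bases after each gene's start on GRCh38.p14 and held 40 of the 46 genes. The table lists more than 1 start for 7 of the 40 (17.5%) and for 19.0% of all its genes, and a gene was counted as holding a motif where any of its windows did. The core of the interferon-stimulated response element, GAAA followed by any 2 bases and GAAA again, was searched for on both strands after expression values had been seen. It was present in 6 of the 40 (15%) and in 4.38% of all 27305 genes in the table. The 6 were PSMA4, PSMB4, PSMB10, PSME1, PSME2 and PSMG4. Of the 6, PSMB10 and PSME1 passed as higher in Sen(IR) against Prol, PSMA4 and PSMB4 passed as lower, and PSME2 and PSMG4 did not pass. Of the 3 genes that passed as higher, PSMB10 and PSME1 thus hold the motif and PSMD10 does not. A tie between this motif and the fold changes was not tested. The stretches of PSMB10, PSME1 and PSME2 are shown because those genes are known to be induced by interferon. Capitals mark the motif (on PSME1 it is spelled on the opposite strand).
PSMB10, chr16:67936852-67936881, minus strand: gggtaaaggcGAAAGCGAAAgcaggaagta
PSME1, chr14:24136189-24136218, plus strand: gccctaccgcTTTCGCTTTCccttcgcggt
PSME2, chr14:24146619-24146648, minus strand: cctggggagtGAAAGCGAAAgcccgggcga
The motif ran from base -21 to -12 before the start of PSMB10, from -28 to -19 before that of PSME2, and from 6 to 15 after that of PSME1. The match of these letters is a description and does not show that a factor bound there.

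The antioxidant response element core, TGACNNNGC, which is read by the factors NFE2L1 and NFE2L2 that control subunit transcription, was present in 14 of the 40 promoters (35%) and in 16.1% of all genes. The ETS motif CCGGAAGT was present in 10 (25%) against 4.95%. CCAAT, the NF-Y motif, was present in 19 (47.5%) against 39.7%, and GGGCGG, the SP1 motif, in 27 (67.5%) against 48.3%. AAGATGGC (YY1) occurred in 5 (12.5%) against 3.52%, and GCGCATGC (nuclear respiratory factor) in 2 (5%) against 3.68%. The STAT motif TTCNNNGAA, also added after values were seen, occurred in 7 (17.5%) against 9.38%, and the NF-kB motif in 0 against 1.71%. PSMG1 and PSMC3, the genes that fell furthest with irradiation, are shown with antioxidant element and CCAAT letters in capitals, respectively. The motif shown differs between them. PSMC3 has no antioxidant element core, and PSMG1 also holds CCAAT and GGGCGG. PSME1, which passed as higher with irradiation, holds the antioxidant element core too. A tie between motif and fold change was not tested.
PSMG1, chr21:39183616-39183644, minus strand: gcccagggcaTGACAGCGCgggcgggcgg
PSMC3, chr11:47426539-47426563, minus strand: cgcgtgtcggCCAATagcggcccca
The first lay at bases -183 to -175 and the second at bases -114 to -110 before the gene's start.

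The levels of the members spanned a wide range. Between genes they are compared per kilobase of annotated exon (CPM per kb). In Sen(IR) cells the highest was PSMB5, the catalytic subunit with chymotrypsin-like activity, at 79.5 CPM per kb, ahead of the alpha subunit PSMA7 at 70.6 and the cap scaffold PSMD2 at 67.2. At the other end of the tested genes stood the assembly chaperone PSMG4 at 0.671 CPM per kb and the alpha subunit PSMA2 at 2.12. Of the exon bases of PSMA2, 29.7% also lie in other annotated genes, and PSMA2 has 3 named pseudogenes. PSMG4 shares exon bases with other genes too. How reads in shared bases were counted was not tested, so the low levels of PSMA2 and PSMG4 are uncertain. The median over the 44 tested genes was 27.0 CPM per kb in Prol, 20.8 in Sen(IR), 21.0 in Sen(IR+CTPI2) and 16.9 in Sen(IR+UK5099). The order depended on the length used. Per kilobase of coding sequence, PSME3 stood first at 208 CPM per kb in Sen(IR) and PSMB5 was sixth at 156. PSMA8, the alpha subunit of the testis, had at most 1 read in a library. PSMB11, the beta subunit of the thymus cortex, had at most 5 reads, both under any level at which groups could be compared.

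Replicates lay close together. The coefficient of variation of the 44 genes had a median of 6.0% in Prol, 3.10% in Sen(IR), 3.93% in Sen(IR+CTPI2) and 4.40% in Sen(IR+UK5099), and the highest was 14.5%. Prol replicate 3 was the highest of its group for 38 of the 44 genes, and Sen(IR+UK5099) replicate 2 for 32. Across groups, the mean of 36 genes was highest in Prol, and the mean of 40 genes was lowest in Sen(IR+UK5099). The heat map of all 44 genes shows this shift as whole columns.

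**Figure D1:**
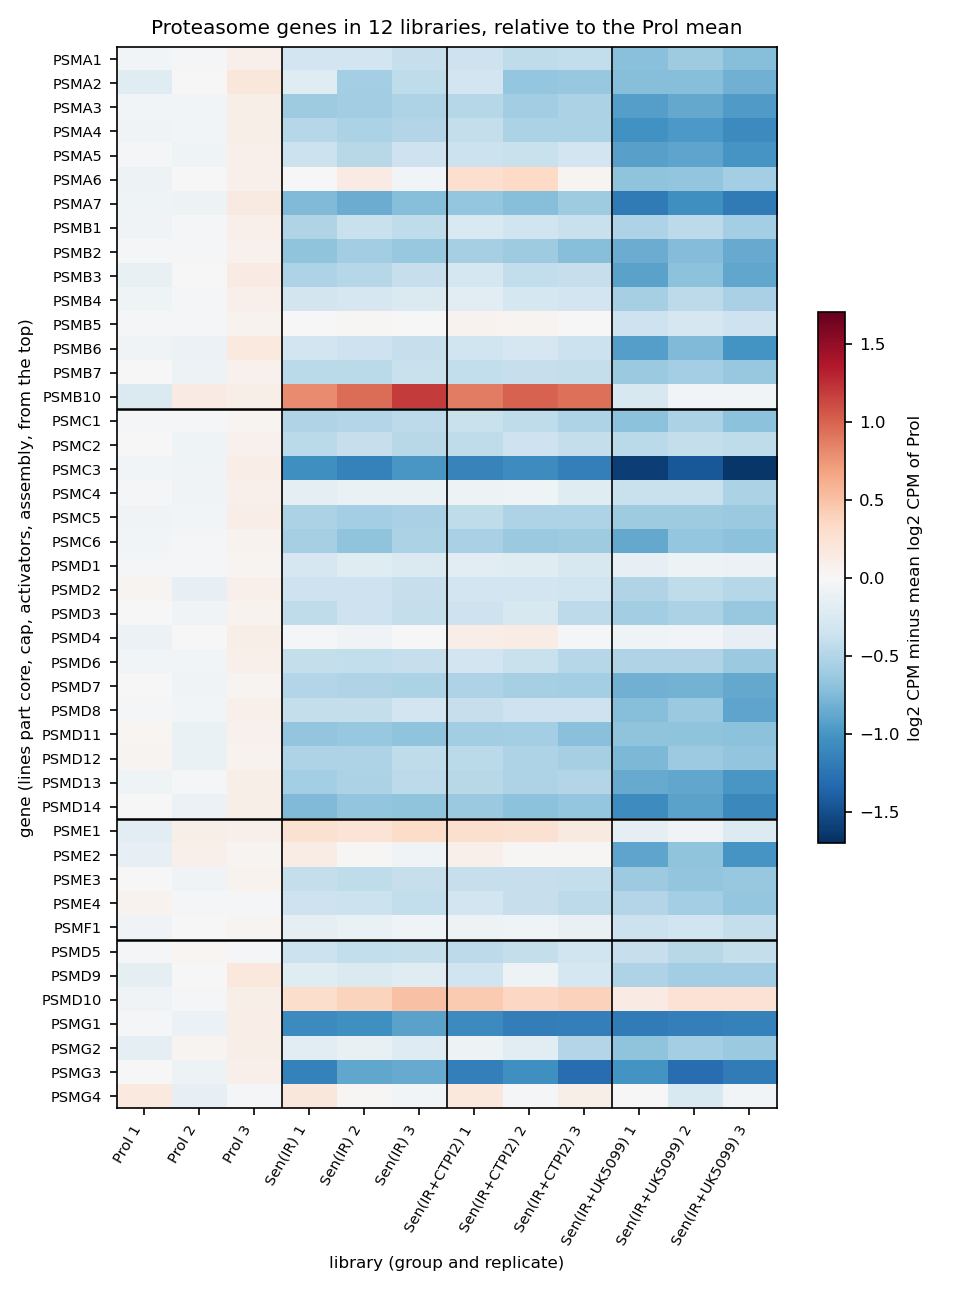
Level of each of the 44 tested genes in each of the 12 libraries, as log2 CPM minus the mean log2 CPM of the 3 Prol libraries (colour scale), with genes grouped from the top into core, cap, activators and assembly. Most rows are blue in the irradiated groups and darkest in the 3 Sen(IR+UK5099) libraries. PSMB10, PSMD10 and PSME1 lie above the Prol mean in Sen(IR) and Sen(IR+CTPI2), and PSMD10 does so in Sen(IR+UK5099) too.

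To ask how proteasome transcripts differ between proliferating and senescent cells, Sen(IR) was compared with Prol. Most genes fell. Of the 44 tested, 33 were lower and 3 were higher at an adjusted p under 0.05 (edgeR quasi-likelihood test with Benjamini-Hochberg adjustment over all genes tested), where 34.5% of all genes passed as lower and 34.1% as higher. With the additional limit of an absolute log2 fold change over 0.5, 13 genes were called lower and 1 higher, against 22.4% and 24.8% of all genes. The median log2 fold change was -0.40, that of all genes tested 0.01. The 3 libraries of one group lay wholly below those of the other for 34 genes (35.5% of all genes) and wholly above for 3 (35.3%). With upper-quartile scaling, which moved the median of all genes by 0.12 on the log2 scale, 7 were called lower and 2 higher.

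In the core, 12 of the 15 tested genes fell and 1 rose, with a median log2 fold change of -0.41. The alpha ring fell in 6 of 7 genes. PSMA7, an alpha subunit, measured 201, 199 and 235 CPM in the Prol libraries and 126, 118 and 128 CPM in Sen(IR). The groups did not overlap, and the log2 fold change was -0.77 (SE 0.06, adjusted p = 3.79e-10, edgeR). PSMA3 and PSMA4 fell by 0.58 and 0.51 on the log2 scale. PSMA1, PSMA2 and PSMA5 fell by less, with log2 fold changes between -0.41 and -0.35. PSMA6 did not pass, with a log2 fold change of 0.03.

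Of the catalytic subunits, PSMB6 (caspase-like) and PSMB7 (trypsin-like) fell while PSMB5 did not pass. PSMB5 was at 121, 119 and 127 CPM in Prol and at 123, 124 and 122 CPM in Sen(IR). These values overlapped, and the log2 fold change was 0.01 with a 95% interval of -0.09 to 0.11 (adjusted p = 0.882, edgeR). With upper-quartile scaling it passed as higher (log2 fold change 0.13, adjusted p = 0.0236, edgeR). PSMB6 measured 70.6, 68.9 and 82.4 CPM in Prol against 58.9, 57.7 and 56.2 CPM in Sen(IR). All Sen(IR) libraries lay below all Prol libraries, with a log2 fold change of -0.36 (SE 0.07, adjusted p = 0.000113, edgeR). PSMB7 went from 139, 129.9 and 144 CPM to 99.8, 100.3 and 106 CPM, again without overlap, a log2 fold change of -0.43 (SE 0.05, adjusted p = 1.60e-07, edgeR). The structural beta subunits PSMB1, PSMB2, PSMB3 and PSMB4 fell as well, with log2 fold changes between -0.64 (PSMB2) and -0.29 (PSMB4).

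PSMB10, the interferon-inducible replacement for PSMB7, moved the opposite way to its constitutive counterpart. It was at 5.33, 6.96 and 6.77 CPM in Prol and at 11, 12.2 and 14.4 CPM in Sen(IR), from 125 to 182 reads and from 247 to 293 reads per library. Every Sen(IR) library was above every Prol library. The log2 fold change was 0.97 (SE 0.12, 1.96-fold, adjusted p = 3.53e-07, edgeR). Its gene spans chr16:67934506-67936864 on GRCh38, and 39.4% of its exon bases also lie in another annotated gene, a readthrough transcript with 11 to 26 reads per library. How reads in the shared bases were counted was not tested.

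In the regulatory cap 15 of the 17 genes fell and 0 rose, with a median log2 fold change of -0.49. PSMC3, an ATPase of the base, showed the largest fall of all members. It was at 207, 205 and 232 CPM in Prol and at 104, 96.7 and 108 CPM in Sen(IR). The groups were far apart, and the log2 fold change was -1.06 (SE 0.06, 0.479-fold, adjusted p = 1.11e-12, edgeR). Among the other ATPases PSMC1, PSMC2, PSMC5 and PSMC6 fell by 0.49, 0.44, 0.56 and 0.60 on the log2 scale, and PSMC4 did not pass (log2 fold change -0.13). The exons of PSMC1 overlap those of NRDE2 by 76.2% and the gene has 13 named pseudogenes, so its level is uncertain.

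All 8 lid genes fell. PSMD14, the metalloprotease that removes ubiquitin from the substrate, measured 168, 155 and 179 CPM in Prol and 99.7, 105 and 104 CPM in Sen(IR). There was no overlap, with a log2 fold change of -0.70 (SE 0.06, adjusted p = 4.91e-10, edgeR). The lid subunit PSMD11 fell by 0.67, PSMD7 and PSMD13 each by 0.52, PSMD12 by 0.49, PSMD6 by 0.41, PSMD3 by 0.40 and PSMD8 by 0.38 on the log2 scale. In the base, the large scaffolds PSMD1 and PSMD2 fell by 0.25 and 0.37. PSMD4, the ubiquitin receptor, was at 128, 137 and 147 CPM in Prol and at 134, 131 and 137 CPM in Sen(IR). These overlapped, with a log2 fold change of -0.03 and a 95% interval of -0.15 to 0.08 (adjusted p = 0.611, edgeR).

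The activators were divided. PSME1, which pairs with PSME2 in the interferon-inducible activator, measured 63.4, 77.1 and 76.3 CPM in Prol and 86.4, 84.3 and 89.0 CPM in Sen(IR). All Sen(IR) libraries were higher, with a log2 fold change of 0.26 (SE 0.07, adjusted p = 0.00179, edgeR). PSME2 was at 68.8, 80.7 and 78.2 CPM in Prol and at 82.8, 76.7 and 72.5 CPM in Sen(IR), overlapping, with a log2 fold change of 0.03 (95% interval -0.13 to 0.18, adjusted p = 0.754, edgeR). Both neighbouring genes lie on chromosome 14. The nuclear activator PSME3 fell from 210.2, 201 and 220.1 CPM to 159, 157 and 161 CPM, without overlap (log2 fold change -0.41, SE 0.05, adjusted p = 9.78e-08, edgeR). PSME4, a large single-chain activator, fell by 0.38 on the log2 scale. PSMF1, an inhibitor of the core in vitro, did not pass (log2 fold change -0.11, adjusted p = 0.068, edgeR), although its groups did not overlap, and it passed without Prol replicate 1 (adjusted p = 0.0408, edgeR).

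Among the assembly genes 4 of 7 fell and 1 rose. PSMG1, which with PSMG2 guides the alpha ring, was at 52.8, 49.8 and 57.7 CPM in Prol and at 25.2, 25.9 and 28.3 CPM in Sen(IR). The groups were widely separated, with a log2 fold change of -1.02 (SE 0.07, adjusted p = 1.49e-11, edgeR), while its partner PSMG2 did not pass (log2 fold change -0.18). PSMG3, which pairs with PSMG4, measured 14.2, 13.6 and 15.3 CPM in Prol and 6.5, 7.77 and 7.90 CPM in Sen(IR). It also separated fully, with a log2 fold change of -0.96 (SE 0.11, adjusted p = 9.38e-08, edgeR), and PSMG4 did not pass (log2 fold change 0.05). Of the chaperones of the cap's base, PSMD5 and PSMD9 fell by 0.40 and 0.23 on the log2 scale. PSMD10, also called gankyrin, was at 61.3, 62.3 and 68.4 CPM in Prol and at 78.6, 83.0 and 90.1 CPM in Sen(IR), higher in every Sen(IR) library, with a log2 fold change of 0.39 (SE 0.06, adjusted p = 8.28e-06, edgeR).

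**Figure D2:**
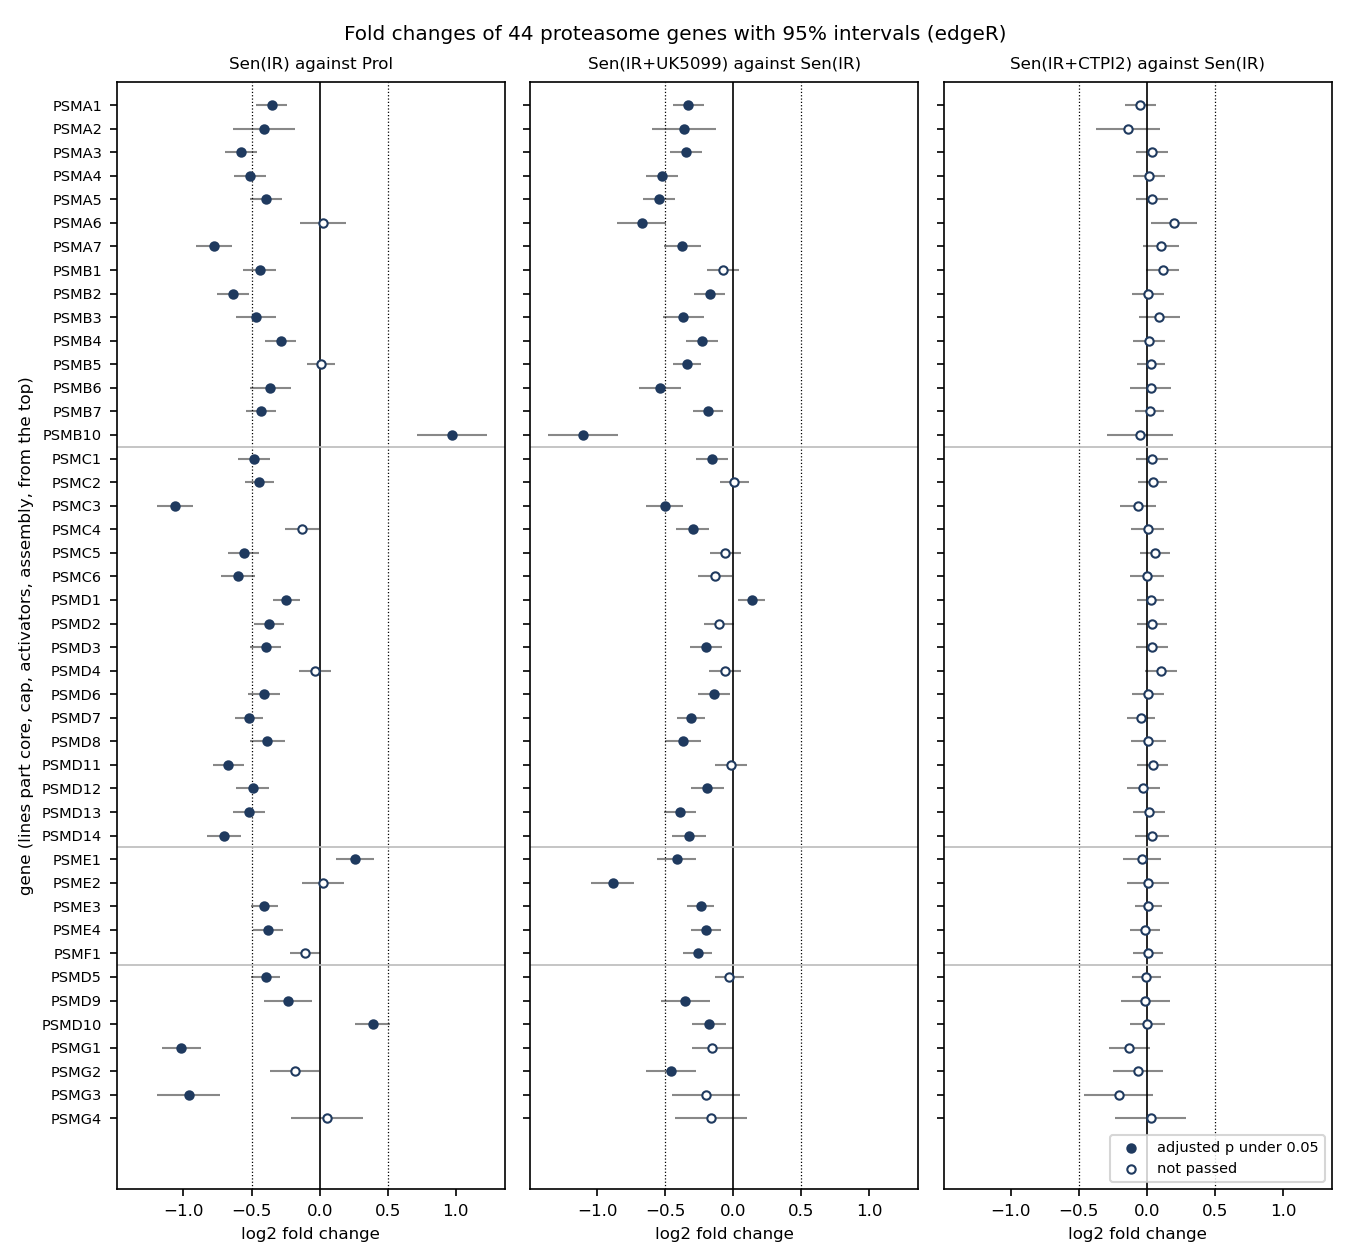
Log2 fold change of each of the 44 tested genes in 3 comparisons, with 95% intervals as bars, filled points for an adjusted p under 0.05 and dotted lines at an absolute log2 fold change of 0.5. Most points lie left of 0 in Sen(IR) against Prol and in Sen(IR+UK5099) against Sen(IR), and all of them are open and near 0 in Sen(IR+CTPI2) against Sen(IR).

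To ask what inhibition of the pyruvate carrier does to these transcripts in senescent cells, Sen(IR+UK5099) was compared with Sen(IR), the same Sen(IR) libraries that served above. Here 32 of the 44 genes were lower and 1 was higher at an adjusted p under 0.05 (edgeR), where 23.5% of all genes passed as lower and 21.9% as higher. With the fold limit 7 genes were called, all lower, against 12.1% of all genes called lower and 8.76% called higher. The median log2 fold change was -0.25, that of all genes tested 0.01. The libraries did not overlap for 35 genes that were lower (28.6% of all genes) and for 1 that was higher (27.9%). Without Sen(IR+UK5099) replicate 3, the number called was 4, and with library totals alone as the scaling it was 3.

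In the core 14 of the 15 tested genes fell, with a median log2 fold change of -0.36, and 5 of the 7 calls lay there. All 7 tested alpha subunits fell. PSMA6 was at 26.4, 29.3 and 25.7 CPM in Sen(IR) and at 16.5, 16.7 and 17.9 CPM in Sen(IR+UK5099). The groups did not overlap, with a log2 fold change of -0.67 (SE 0.09, 0.627-fold, adjusted p = 1.01e-06, edgeR). A readthrough gene shares 14.1% of its exon bases, and it has 4 named pseudogenes. PSMA5 and PSMA4 fell by 0.54 and 0.52, and PSMA1, PSMA2, PSMA3 and PSMA7 by 0.33 to 0.38 on the log2 scale.

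PSMB10 showed the largest fall of all members. From 11, 12.2 and 14.4 CPM in Sen(IR) it went to 5.22, 6.08 and 6.12 CPM in Sen(IR+UK5099). No library overlapped, and the values were close to the 5.33 to 6.96 CPM of Prol. The log2 fold change was -1.10 (SE 0.12, 0.466-fold, adjusted p = 1.95e-07, edgeR). All 3 constitutive catalytic subunits fell too. PSMB6 measured 38.4, 43.9 and 36.6 CPM with UK5099 and so was lower in each library (log2 fold change -0.54, SE 0.07, adjusted p = 2.96e-06, edgeR). PSMB5, which had been level between Prol and Sen(IR), measured 96.1, 101 and 95.5 CPM, below all Sen(IR) libraries (log2 fold change -0.34, SE 0.05, adjusted p = 6.80e-06, edgeR). PSMB7 fell least of these, to 88.4, 92.2 and 88.3 CPM (log2 fold change -0.19, SE 0.05, adjusted p = 0.00578, edgeR), and with library totals alone it did not pass (adjusted p = 0.113, edgeR). Of the structural beta subunits, PSMB2, PSMB3 and PSMB4 fell by 0.17, 0.37 and 0.23, and PSMB1 did not pass (log2 fold change -0.08).

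In the cap 10 of 17 genes fell and 1 rose, with a median log2 fold change of -0.15. PSMC3, already low in Sen(IR), measured 70.6, 79.0 and 68.4 CPM in the UK5099 libraries, or -0.50 as a log2 fold change. It lay below all Sen(IR) libraries. PSMC4 and PSMC1 fell by 0.30 and 0.15, and PSMC2, PSMC5 and PSMC6 did not pass. Of the lid, 7 of 8 genes fell, among them PSMD14, at 79.7, 88.6 and 77.9 CPM (log2 fold change -0.33, SE 0.06, adjusted p = 0.000124, edgeR), while PSMD11, at a log2 fold change of -0.02, did not. In the base, PSMD1 went from 234, 249 and 241 CPM to 259, 270.2 and 267 CPM, higher in every library (log2 fold change 0.14, SE 0.05, adjusted p = 0.0242, edgeR). That rise was small and was lost when Sen(IR) replicate 1 or 3, or Sen(IR+UK5099) replicate 2 or 3, was left out, where the adjusted p reached 0.111 (edgeR), and with no filter on low counts. PSMD2 and PSMD4 did not pass, at log2 fold changes of -0.11 and -0.06.

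All 5 activator and inhibitor genes fell. PSME2 changed most, from 82.8, 76.7 and 72.5 CPM to 40.8, 47.1 and 37.7 CPM. There was a wide gap between the groups, with a log2 fold change of -0.88 (SE 0.08, 0.542-fold, adjusted p = 2.84e-09, edgeR). The gene has 6 named pseudogenes, so its level is uncertain. PSME1 measured 64.6, 68.8 and 61.3 CPM with UK5099, below all Sen(IR) libraries (log2 fold change -0.42, SE 0.07, adjusted p = 3.09e-05, edgeR). PSME3, PSME4 and PSMF1 fell by 0.24, 0.20 and 0.26 on the log2 scale, and with library totals alone PSME4 did not pass (adjusted p = 0.0905, edgeR). Of the assembly genes PSMG2, PSMD9 and PSMD10 fell, by 0.45, 0.35 and 0.18. PSMG1, PSMG3, PSMG4 and PSMD5 did not pass, so the chaperones that had fallen furthest with irradiation gave log2 fold changes of -0.15 (PSMG1) and -0.20 (PSMG3) here.

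**Figure D3:**
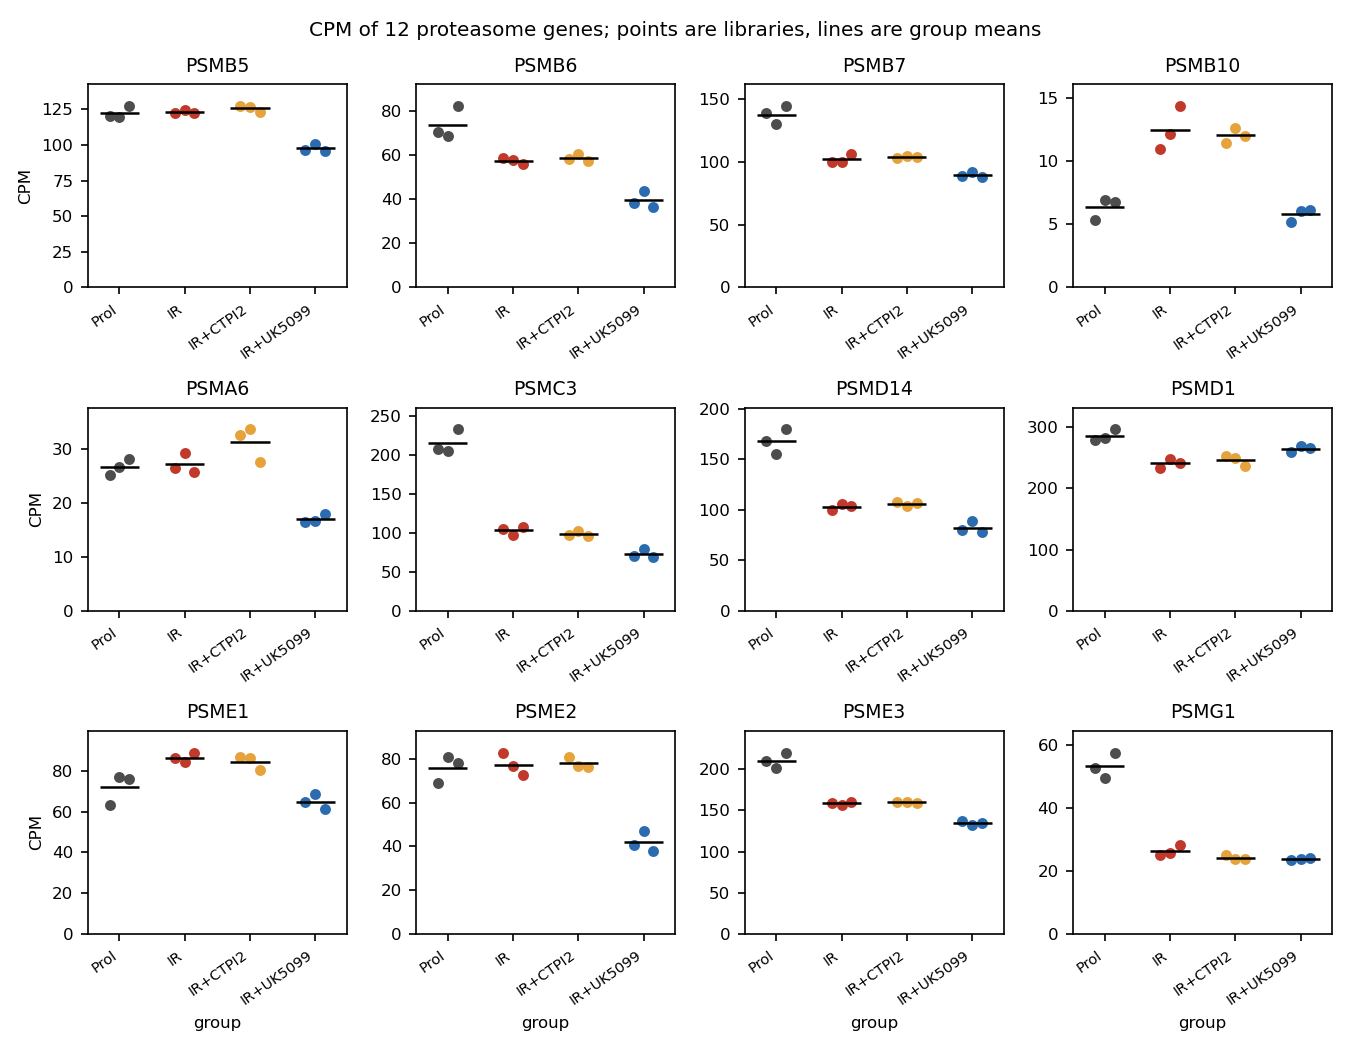
CPM of 12 genes in each library (points), with group means as lines and axes starting at 0; IR stands for Sen(IR). PSMB10 is high in the Sen(IR) and Sen(IR+CTPI2) libraries alone, PSMC3 and PSMG1 are high in Prol alone, and PSME2 is low in the Sen(IR+UK5099) libraries alone.

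With CTPI2 no proteasome gene changed detectably, and few genes of any kind did. In Sen(IR+CTPI2) against Sen(IR), 0 of the 44 genes passed the adjusted p and 0 were called, by edgeR and by DESeq2. Of all genes, 0.486% passed and 0.166% were called by edgeR, so 0 of 44 does not set the proteasome genes apart. The libraries did not overlap for 3 genes that were higher and 0 that were lower, against 1103 and 1349 of all 16251 genes. A single gene, PSMA6, had an unadjusted p under 0.05, where 7.27% of all genes did. The median log2 fold change was 0.01 and the range was from -0.21 (PSMG3) to 0.20 (PSMA6), both named after their values were seen. PSMA6 measured 32.5, 33.6 and 27.6 CPM with CTPI2, which overlapped the Sen(IR) libraries (adjusted p = 0.558, edgeR). The 95% intervals of all 44 genes lay between -0.46 and 0.37, inside an absolute log2 fold change of 0.5, so a change of that size was outside the interval of each gene.

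The inducible genes gave the same picture. PSMB10 was at 11.5, 12.7 and 12 CPM with CTPI2, within the range of the Sen(IR) libraries (log2 fold change -0.05, 95% interval -0.29 to 0.19, adjusted p = 0.972, edgeR). PSME1 and PSME2 gave log2 fold changes of -0.03 and 0.01, with 95% intervals of -0.18 to 0.11 and -0.14 to 0.17. PSMB5 was at 127, 127 and 123 CPM, a log2 fold change of 0.03 (95% interval -0.07 to 0.13). All 4 genes overlapped between the groups.

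The inhibitors were compared directly, at the doses named above, which differ. Sen(IR+UK5099) was lower than Sen(IR+CTPI2) for 34 of the 44 genes at an adjusted p under 0.05 and for 6 with the fold limit, against 23.4% and 11.7% of all genes, and higher for 0 of the 44 (21.1% of all genes passed as higher by edgeR). DESeq2 gave 34 and 6 as well. The median log2 fold change was -0.25. The 6 called genes were PSMB10 (-1.05), PSME2 (-0.90), PSMA6 (-0.88), PSMA5 (-0.58), PSMB6 (-0.57) and PSMA4 (-0.54). PSMB5 differed by -0.37 (SE 0.05, adjusted p = 2.37e-06, edgeR), and PSME1 by -0.38 (SE 0.07, adjusted p = 9.04e-05, edgeR). PSMD4 passed at -0.16 (adjusted p = 0.0259, edgeR), and it did not without Sen(IR+CTPI2) replicate 1 or 2 or without Sen(IR+UK5099) replicate 1 or 3, with adjusted p up to 0.114 (edgeR). PSMD1, PSMG3 and PSMG1 did not pass, at log2 differences of 0.11, 0.01 and -0.03. The cap, with 12 of 17 genes lower and a median of -0.17, again lay nearer to 0 than the core, with 14 of 15 lower and a median of -0.39.

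Irradiation and UK5099 are set side by side here as the outcome of each gene in each comparison, and the comparisons share the Sen(IR) libraries, so how often outcomes coincide is not given as a result. Genes that passed as lower in both were PSMA1 to PSMA5 and PSMA7 of the alpha ring, PSMB2, PSMB3, PSMB4, PSMB6 and PSMB7 of the beta ring, the ATPases PSMC1 and PSMC3, every lid gene but PSMD11, the activators PSME3 and PSME4, and the chaperone PSMD9. PSMB1, PSMC2, PSMC5, PSMC6, PSMD2, PSMD5, PSMD11, PSMG1 and PSMG3 passed as lower with irradiation and did not pass with UK5099. PSMA6, PSMB5, PSMC4, PSME2, PSMF1 and PSMG2 did not pass with irradiation and passed as lower with UK5099. PSMB10, PSMD10 and PSME1 were higher with irradiation and lower with UK5099, PSMD1 was lower and then higher, and PSMD4 and PSMG4 passed in neither. Because the same Sen(IR) libraries stand on both sides, a chance deviation in them would push the values in opposite directions, which bears on PSMB10, PSMD10, PSME1 and PSMD1.

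The summed level of each class shifted with its genes. The core summed to 688 to 769 CPM per kb in Prol, 535 to 550 in Sen(IR), 550 to 571 in Sen(IR+CTPI2) and 419 to 456 in Sen(IR+UK5099). The cap summed to 571 to 634, 425 to 434, 422 to 441 and 363 to 388 CPM per kb in the same order of groups. Activators were at 119 to 131 CPM per kb in Prol and 119 to 122 in Sen(IR), which overlap, and at 86.8 to 94.1 in Sen(IR+UK5099), which lies below both. Assembly genes stood at 88.6 to 95.8 CPM per kb in Prol, and their range was 73.8 to 80.0 in Sen(IR) and 67.9 to 69.7 in Sen(IR+UK5099). All 46 genes together took 5325 to 5831 CPM in Prol and 4146 to 4208 CPM in Sen(IR). They took 4134 to 4327 CPM with CTPI2 and 3485 to 3691 CPM with UK5099.

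**Figure D4:**
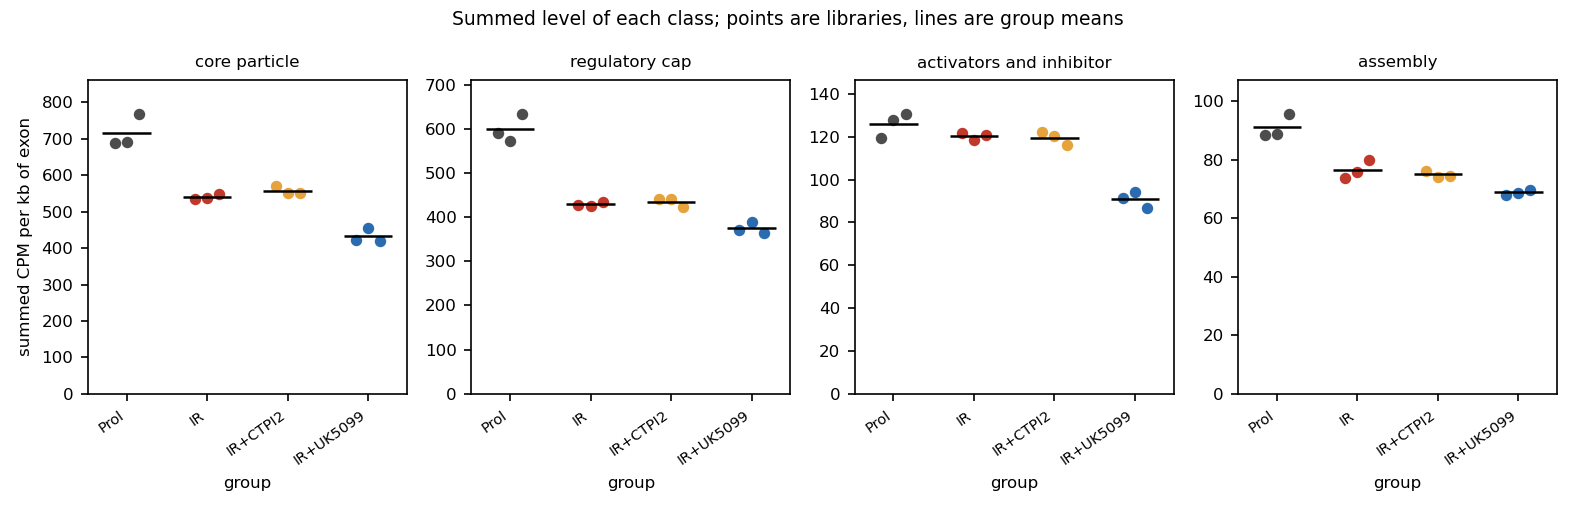
Summed CPM per kb of exon of the core, cap, activator and assembly genes in each library (points), with group means as lines and axes starting at 0; IR stands for Sen(IR). Core and cap are lower in all irradiated libraries than in the Prol libraries, and the 4 classes are lowest in the Sen(IR+UK5099) libraries.

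Proportions inside the complex are given as ratios of CPM per kb of exon, without a test. The size of each ratio depends on the length used, so it does not give the proportion of the partners. Per kilobase of coding sequence, PSME1 was at 116, PSME2 at 108 and PSME3 at 208 CPM per kb in Sen(IR). PSMB10 stood at 0.0423 to 0.0589 of the level of PSMB7 in Prol, 0.121 to 0.149 in Sen(IR), 0.123 to 0.133 in Sen(IR+CTPI2) and 0.0649 to 0.0763 in Sen(IR+UK5099). The ratio in Sen(IR+UK5099) thus lay between those of Prol and Sen(IR) and touched neither. PSME1 plus PSME2 stood at 1.35 to 1.69 times PSME3 in Prol, 2.26 to 2.32 times in Sen(IR), 2.15 to 2.29 times in Sen(IR+CTPI2) and 1.73 to 2.03 times in Sen(IR+UK5099). PSME2 relative to PSME1, its partner in the activator, was at 0.509 to 0.538 in Prol, 0.404 to 0.475 in Sen(IR) and 0.305 to 0.340 in Sen(IR+UK5099). The 14 constitutive core subunits relative to the cap were at 1.16 to 1.21 in Prol and 1.24 to 1.25 in Sen(IR). They were at 1.13 to 1.16 in Sen(IR+UK5099) and 1.23 to 1.29 in Sen(IR+CTPI2). Per kilobase of exon, every Sen(IR) library thus lay above every Prol and every Sen(IR+UK5099) library. The order against Prol depended on the length, because with summed CPM not divided by length the Sen(IR) and Prol libraries overlapped in this ratio.

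**Figure D5:**
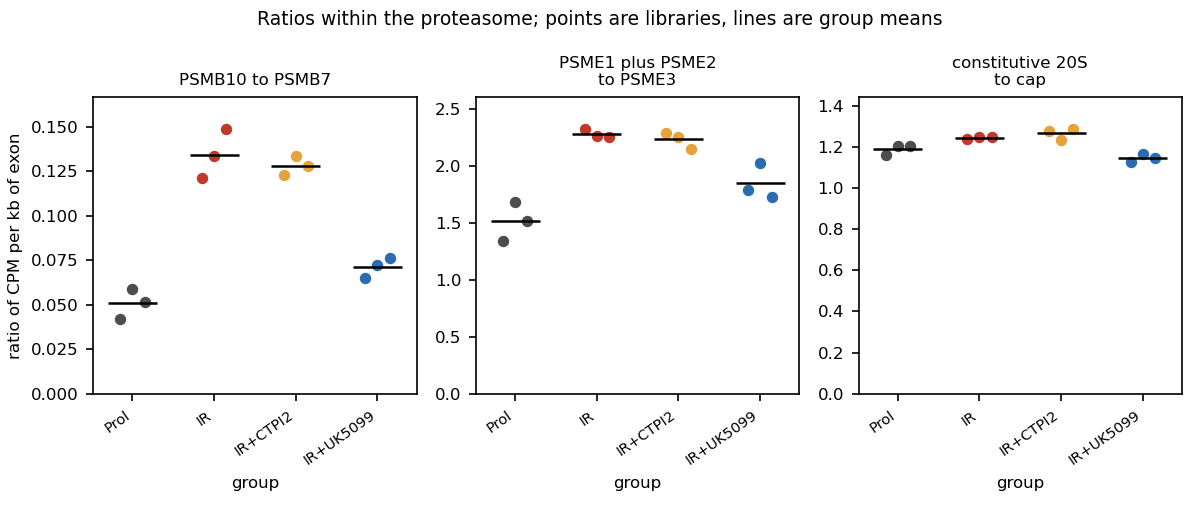
Ratios of CPM per kb of exon in each library (points), with group means as lines and axes starting at 0; IR stands for Sen(IR). The ratios of PSMB10 to PSMB7 and of PSME1 plus PSME2 to PSME3 are highest in Sen(IR) and Sen(IR+CTPI2), and the ratio of constitutive core to cap lies between 1.13 and 1.29 in all libraries.

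Genes around the proteasome were taken from 4 lists, and their counts are of genes passing the adjusted p. Of all genes tested, 34.1% passed as higher and 34.5% as lower with irradiation. With UK5099 these shares were 21.9% and 23.5%. The lists are short and some counts lie near these shares, so the counts are descriptions only. Of 10 other subunits, assembly and bound factors, 7 fell in Sen(IR) against Prol, and 3 fell and 1 rose with UK5099. UCHL5, a deubiquitinase of the cap, measured 60.3 to 68.3 CPM in Prol and 23.4 to 28.1 CPM in Sen(IR), and so fell by 1.31 on the log2 scale. POMP, the chaperone that completes core assembly, was at 136 to 158 CPM in Prol, from 135 to 144 CPM in Sen(IR) and from 89.8 to 102 CPM with UK5099. Its log2 fold changes were -0.04 (not passed) and -0.54. AKIRIN2, which carries proteasomes into the nucleus, gave -0.29 and then 0.53.

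Of 8 genes in the control of subunit transcription, 5 rose and 1 fell with irradiation. NFE2L1, the factor that raises subunit transcription when proteolysis is limiting, was at 269 to 285 CPM in Prol, from 616 to 625 CPM in Sen(IR) and from 446 to 460 CPM with UK5099. No groups overlapped, with log2 fold changes of 1.15 (adjusted p = 6.09e-16) and -0.45 (adjusted p = 1.99e-08, edgeR). The level of the NFE2L1 transcript and the levels of most subunit transcripts differed in opposite directions between Prol and Sen(IR). Between Sen(IR) and Sen(IR+UK5099) they differed in the same direction, both lower with UK5099. A link between them was not tested. NFE2L2, which reads the same element, was at 258 to 331 CPM in Prol, from 449 to 480 CPM in Sen(IR) and from 561 to 588 CPM with UK5099. It rose in both comparisons, by 0.68 (adjusted p = 3.28e-09) and 0.32 (adjusted p = 0.000282, edgeR) on the log2 scale, and 38.4% of its exon bases also lie in other annotated genes. DDI2, the protease that activates the NFE2L1 protein, fell by 0.77 with irradiation and rose by 0.34 with UK5099. With UK5099, 3 of the 8 genes rose and 4 fell.

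Of 13 genes for ubiquitin and substrate delivery, 6 rose and 5 fell with irradiation, and 1 rose and 6 fell with UK5099. ZFAND5, a shuttle that stimulates the proteasome, rose by 0.74 and then fell by 0.43 on the log2 scale. UBB, a ubiquitin gene, rose by 0.31 and then fell by 0.30. Of 5 interferon-linked genes, 3 rose with irradiation and all 5 fell with UK5099. TAP1, a peptide transporter of antigen presentation, was at 46.0 to 50.9 CPM in Prol, from 107 to 125 CPM in Sen(IR) and from 57.6 to 61.5 CPM with UK5099. IRF1, a factor that reads the interferon-stimulated element, was at 37.4 to 40.5, 75.3 to 79.9 and 33.4 to 35.5 CPM in the same groups. The other inducible catalytic subunits, PSMB8 and PSMB9, did not pass with irradiation (log2 fold changes 0.06 and -0.31), and fell by 1.03 and 1.28 with UK5099. PSMB9 was low, at a mean of 4.44 CPM in Sen(IR) and 1.83 CPM in Sen(IR+UK5099). Of the exon bases of PSMB8, 17.3% also lie in other annotated genes. With CTPI2 no gene of the 4 lists passed, where 0.486% of all genes did. The smallest adjusted p among the listed genes was 0.257 (edgeR).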

How the data were processed

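RNA was sequenced from 12 libraries. The authors used Trimmomatic 0.36 for trimming, STAR 2.5.2b for alignment to GRCh38 and featureCounts of Subread 1.5.2 for counting unique reads in exons. The deposited values are raw counts per gene, and whether counting used strand is not given in the sources used here, so overlapping and antisense genes cannot be told apart.

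Groups came from the labels. Counts were tested with edgeR 4.0.16 in R 4.3.3 (low-count filter, TMM scaling, quasi-likelihood fit of all 12 libraries with group as the term), with Benjamini-Hochberg adjustment over 16251 genes. Genes passed at an adjusted p under 0.05 and were called where the log2 fold change also exceeded 0.5 in size. The fold limit is the study's, whose own calls used the unadjusted p from DESeq2. Levels are CPM of TMM-scaled libraries, divided for comparison between genes by exon length from GENCODE 44. Differences between replicate libraries exceeded sampling noise. On simulated counts for Sen(IR) against Prol, with 200 of 15856 genes changed by 1 on the log2 scale, edgeR recovered 94.5% with 2 false calls. The simulation used a common spread for all genes. Smaller changes, such as those of most proteasome genes, were not simulated.

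The genes, lists and motifs were chosen with earlier results of these data known. Per comparison, the 3 genes with the largest passing rise and fall and a set of catalytic, inducible, activator and ubiquitin-handling subunits were named in full. Alternatives were DESeq2 1.42.0, other scalings, filters and limits, a replicate block and leaving out libraries.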

Additional observations from a re-analysis of the deposited data

How the results depend on the processing

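The numbers of genes passing the adjusted p stayed within 1.5 times under every alternative. The numbers called moved further in 6 cases. In Sen(IR) against Prol, 14 became 9 with upper-quartile scaling and 2 with a log2 limit of 1. In Sen(IR+UK5099) against Sen(IR), 7 became 3 with library totals alone and 1 with a log2 limit of 1. In Sen(IR+UK5099) against Sen(IR+CTPI2), 6 became 1 with a log2 limit of 1. Leaving out a library gave 11 to 17, 4 to 7 and 5 to 9 called in these comparisons, the 4 without Sen(IR+UK5099) replicate 3, and 0 with CTPI2.

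Signs turned only for genes near 0 that did not pass. In Sen(IR) against Prol, the log2 fold change was -0.0063 for PSMB5 with only the compared groups, 0.0123 for PSMF1 and 0.0873 for PSMD4 with upper-quartile scaling, and 0.0115 for PSMD4 with library totals alone, where PSMD4 in Sen(IR+UK5099) against Sen(IR) was 0.0281. Leaving out libraries gave -0.0083 to 0.0374 (PSMB5), -0.0380 to 0.0731 (PSME2) and -0.0802 to 0.0155 (PSMD4) in Sen(IR) against Prol, and with CTPI2 -0.137 to 0.0598 (PSMB10), -0.0562 to 0.0018 (PSME1) and -0.0329 to 0.0640 (PSME2). The cause was not tested.

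Same-numbered libraries did not deviate together (correlations of -0.051 to 0.042 over 18 pairs, and 5 of 12 libraries closest to their own number). With a replicate block 14, 7, 0 and 6 genes were called in the 4 comparisons and 36, 32, 0 and 34 passed. The planned length of the RefSeq protein was not run and was replaced by coding length from GENCODE. PSMA8, with at most 1 read in any library, and PSMB11, with at most 5, had too few reads to be tested.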
